A study of Homo sapiens with 27 samples.

Results

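The 6 small proline-rich (SPRR) genes described here were SPRR1A, SPRR1B, SPRR2A, SPRR2D, SPRR2E and SPRR3, each of which had 1 row of the 40487 rows in the deposited table. They were chosen by gene symbol, with earlier results of these libraries known, among which SPRR3 and SPRR1A stood with the strongest falls under oncostatin M (OSM). The comparison of OSM with phosphate-buffered saline (PBS) is therefore given for these 6 genes as a description without a test. RNA-seq had been made on MCF10A, a spontaneously immortalised and non-tumorigenic line of breast epithelium, in 27 libraries, 3 for each of 9 groups. The culture medium before treatment held epidermal growth factor (EGF, 20 ng/ml), horse serum, hydrocortisone, cholera toxin and insulin, and was replaced for 18 h by medium free of growth factors. The T0 group was harvested at that point (0 h), and the 8 others 24 h after fresh growth-factor-free medium with PBS alone, EGF, OSM or transforming growth factor beta (TGFB), each pair (EGF+OSM, EGF+TGFB, OSM+TGFB), or all 3 (EGF+OSM+TGFB), each ligand at 10 ng/ml. Every group thus carried the earlier EGF and serum exposure, and all came from a single cell line. The series asks whether responses to combined signals add up.

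SPRR proteins are short, proline-rich and glutamine-rich precursors of the cornified envelope, the protein shell that keratinocytes lay down under the plasma membrane late in squamous differentiation. Transglutaminases crosslink them to one another and to larger precursors such as involucrin and loricrin, for which they act as bridges. The SPRR1 genes and SPRR3 are known from wet squamous epithelia and stressed epidermis, and the SPRR2 genes form a group of close copies. All lie in the epidermal differentiation complex of chromosome band 1q21, beside the late cornified envelope (LCE), involucrin and S100 genes. The mammary gland is not normally a squamous tissue, and cultured MCF10A cells are known to express squamous genes.

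In GENCODE release 44 (GRCh38) the 6 genes lay within 122.1 kb of chromosome 1. In order, they were SPRR1A (ENSG00000169474, 152984081 to 152985814, plus strand), SPRR3 (ENSG00000163209, 153001747 to 153003856, plus), SPRR1B (ENSG00000169469, 153031203 to 153032900, plus), SPRR2D (ENSG00000163216, 153039732 to 153041931, minus), SPRR2A (ENSG00000241794, 153056120 to 153057512, minus) and SPRR2E (ENSG00000203785, 153093135 to 153106184, minus). The RefSeq promoter table (GRCh38.p14) held 4 of the 6 (SPRR1A, SPRR1B, SPRR2A and SPRR3, not SPRR2D or SPRR2E). The 200 bases before each RefSeq start site are shown because these genes moved together across the groups. Capitals mark matches to the AP-1 motif TGANTCA and the TATA box TATAAA, and a run of 10 bases that the SPRR1A, SPRR1B and SPRR3 windows share. The windows are chr1:152983881-152984080 (plus strand) for SPRR1A, chr1:153031003-153031202 (plus) for SPRR1B, chr1:153001549-153001748 (plus) for SPRR3 and chr1:153057513-153057712 (minus) for SPRR2A, each written 5′ to 3′ on the gene's strand.
SPRR1A: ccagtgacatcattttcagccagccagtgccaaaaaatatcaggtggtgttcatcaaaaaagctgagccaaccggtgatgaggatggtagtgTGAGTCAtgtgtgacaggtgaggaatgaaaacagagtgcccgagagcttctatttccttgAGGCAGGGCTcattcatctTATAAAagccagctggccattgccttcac
SPRR1B: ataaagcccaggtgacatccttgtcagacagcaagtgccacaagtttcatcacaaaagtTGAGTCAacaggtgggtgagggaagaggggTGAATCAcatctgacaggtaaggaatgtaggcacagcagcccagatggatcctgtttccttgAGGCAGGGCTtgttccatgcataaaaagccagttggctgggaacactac
SPRR3: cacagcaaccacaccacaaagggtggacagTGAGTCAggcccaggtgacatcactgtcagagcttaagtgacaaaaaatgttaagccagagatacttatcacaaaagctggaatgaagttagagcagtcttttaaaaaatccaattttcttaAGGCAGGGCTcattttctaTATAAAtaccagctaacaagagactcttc
SPRR2A: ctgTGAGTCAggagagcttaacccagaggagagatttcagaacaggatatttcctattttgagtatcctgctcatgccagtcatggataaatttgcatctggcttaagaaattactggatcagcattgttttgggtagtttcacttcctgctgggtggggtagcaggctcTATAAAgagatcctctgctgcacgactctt

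The AP-1 letters, bound by FOS and JUN family dimers, were found within 250 bases before the start in 4 of the 4 promoters, against 6.59% of 34943 promoters in the table. Among further SPRR promoters in the table, SPRR2F and SPRR2G held a match, and SPRR2B, SPRR4 and SPRR5 held none. Promoters of related genes are not independent of one another. Both strands were searched for each motif, and the AP-1 letters read the same on either. The AP-1 matches lay 108 to 102 bases before the start in SPRR1A, 141 to 135 and 111 to 105 in SPRR1B, 170 to 164 in SPRR3 and 197 to 191 in SPRR2A. TATAAA stood 29 to 24 bases before the start in SPRR1A and SPRR3 and 30 to 25 in SPRR2A, was not among the letters of the SPRR1B window, and occurred in 10.8% of all promoters. The ETS core GGAA occurred in 4 of 4 and in 92.7% of all promoters. The STAT letters TTCNNNGAA were in 0 of 4 (6.56% of all) and the SMAD letters CAGAC in 2 of 4 (38% of all). GGAA can overlap the STAT letters, and no AP-1 match overlapped another motif. The shared run aggcagggct lay 48 to 39 bases before the start in SPRR1A and SPRR3 and 49 to 40 in SPRR1B, and was present in 0.318% of all promoters on either strand. It was read off these windows, and none of these matches is a measurement of binding.

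The 27 libraries held 30.1 to 52.9 M estimated counts each (median 39.5 M, M being 1e+06). CPM below means counts per 1e+06 counts of the library, after TMM scaling of library sizes. Replicates of a group differed by more than counting error, and the labels do not say that they came from separate cultures, so p-values measure the spread between these samples. All 10 epithelial markers averaged at least 1 CPM, with a summed level of 11990 to 48443 CPM per library. The fibroblast markers COL3A1, LUM and PDGFRA, the leukocyte markers PTPRC and CD3E, and all 3 endothelial markers averaged under 1 CPM over the 27 libraries, whereas DCN, CD68 and CD14 were present. Of the 6 luminal and milk markers, GATA3 alone averaged over 1 CPM. In such bulk samples, fewer cells of a type and less RNA per cell cannot be told apart.

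All 6 SPRR genes passed the filter on low counts. SPRR1B was the most abundant per length of its canonical transcript in PBS, at 1060 ± 147 CPM per kb (SD, n = 3). SPRR3 followed at 349 ± 89.0 CPM per kb, SPRR1A at 195 ± 47.5, SPRR2D at 63.2 ± 17.5, SPRR2A at 46.6 ± 13.2 and SPRR2E at 18.8 ± 7.99. Together the 6 genes took 1184 ± 226 CPM in PBS and 12.9 ± 2.42 CPM with all 3 ligands. Their transcripts share sequence, so that the authors' estimated counts may have split reads between copies. The share of distinct 31-base words that also occur in another SPRR gene's transcripts was 52.7% for SPRR2A (37.4% shared with SPRR2B), 32.3% for SPRR2E, 29.4% for SPRR2D, 15.6% for SPRR1B, 13.9% for SPRR1A and 0% for SPRR3. Values of the individual SPRR2 genes are therefore less certain than that of SPRR3.

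SPRR3, an envelope precursor of wet squamous epithelia, was at 241, 302 and 399 CPM in the 3 PBS libraries and at 76.1, 101 and 99.9 CPM at T0. With TGFB it was at 109, 157 and 258 CPM and with EGF at 64.7, 108 and 122 CPM. EGF+TGFB gave 13.6, 25.5 and 46.2 CPM, OSM 4.04, 7.06 and 4.16 CPM, and OSM+TGFB 3.93, 4.52 and 4.50 CPM. The lowest levels were in EGF+OSM (2.60, 3.14 and 2.07 CPM) and EGF+OSM+TGFB (1.84, 2.20 and 1.72 CPM). All 12 libraries with OSM lay below all 15 without it. Neighbours in this order overlapped in part: PBS with TGFB, TGFB with EGF, EGF with T0, OSM with OSM+TGFB, and EGF+OSM with EGF+OSM+TGFB.

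SPRR1A and SPRR1B, close copies that encode the classical cornifin precursors, had the same order of groups. SPRR1A was at 97.6, 122 and 159 CPM in PBS, 72.0, 87.6 and 127 CPM in TGFB, 46.9, 50.2 and 48.7 CPM at T0, and 24.7, 33.9 and 44.7 CPM in EGF. It stood at 6.30, 8.21 and 15.9 CPM in EGF+TGFB, 1.99, 2.81 and 1.70 CPM in OSM, 2.16, 2.22 and 2.03 CPM in OSM+TGFB, 1.19, 1.02 and 0.759 CPM in EGF+OSM, and 0.489, 0.558 and 0.596 CPM with all 3 ligands. Only the neighbouring pairs PBS and TGFB, and OSM and OSM+TGFB, overlapped. The mean in PBS was 231 times that with all 3 ligands, where the 3 libraries held 16 to 20 counts.

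SPRR1B averaged 656 ± 91.0 CPM in PBS (SD, n = 3), 560 ± 117 in TGFB, 343 ± 24.6 at T0, 233 ± 26.2 in EGF and 85.3 ± 23.4 in EGF+TGFB. It averaged 20.5 ± 4.73 CPM in OSM, 17.5 ± 2.05 in OSM+TGFB, 12.9 ± 2.20 in EGF+OSM and 6.35 ± 1.24 in EGF+OSM+TGFB. As for SPRR1A, only PBS with TGFB and OSM with OSM+TGFB overlapped among neighbours in this order. Its lowest library still held 194 counts, so the low end of SPRR1B rests on more reads than that of any other of the 6 genes.

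Among the SPRR2 genes, a tandem group of near-identical envelope precursors, SPRR2D stepped down between the groups with and without OSM. SPRR2D was at 29.6, 46.5 and 52.3 CPM in PBS, 38.8, 52.4 and 67.8 CPM in TGFB, 26.8, 23.1 and 25.9 CPM at T0, 21.1, 23.2 and 24.3 CPM in EGF and 18.8, 21.8 and 20.9 CPM in EGF+TGFB. The means of its 4 groups with OSM lay between 2.56 and 3.46 CPM, and each of these overlapped the next. Thus 18.8 CPM was the lowest value without OSM and 4.03 CPM the highest with it.

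SPRR2A did not divide that way. It was at 21.4, 35.3 and 38.1 CPM in PBS, 13.8, 22.5 and 26.5 CPM in TGFB, and 12.2, 13.6 and 11.2 CPM at T0. The EGF libraries (3.83, 5.17 and 5.43 CPM) overlapped the OSM libraries (4.47, 4.70 and 3.89 CPM), and EGF+TGFB (1.32, 1.97 and 2.37 CPM) lay below OSM+TGFB (3.31, 4.46 and 3.10 CPM). SPRR2A averaged 1.49 ± 0.443 CPM in EGF+OSM and 1.18 ± 0.339 CPM in EGF+OSM+TGFB, each overlapping its neighbour. SPRR2E, the least abundant, averaged 13.4 ± 6.44 CPM in TGFB, 12.8 ± 5.43 in PBS, 4.15 ± 1.13 in EGF, 3.45 ± 0.0751 at T0 and 1.55 ± 0.977 in EGF+TGFB. Its TGFB and PBS libraries overlapped, as did EGF and T0. Its means in the 4 groups with OSM ran from 0.733 down to 0.297 CPM, and its lowest library held 3 counts.

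**Figure D1:**
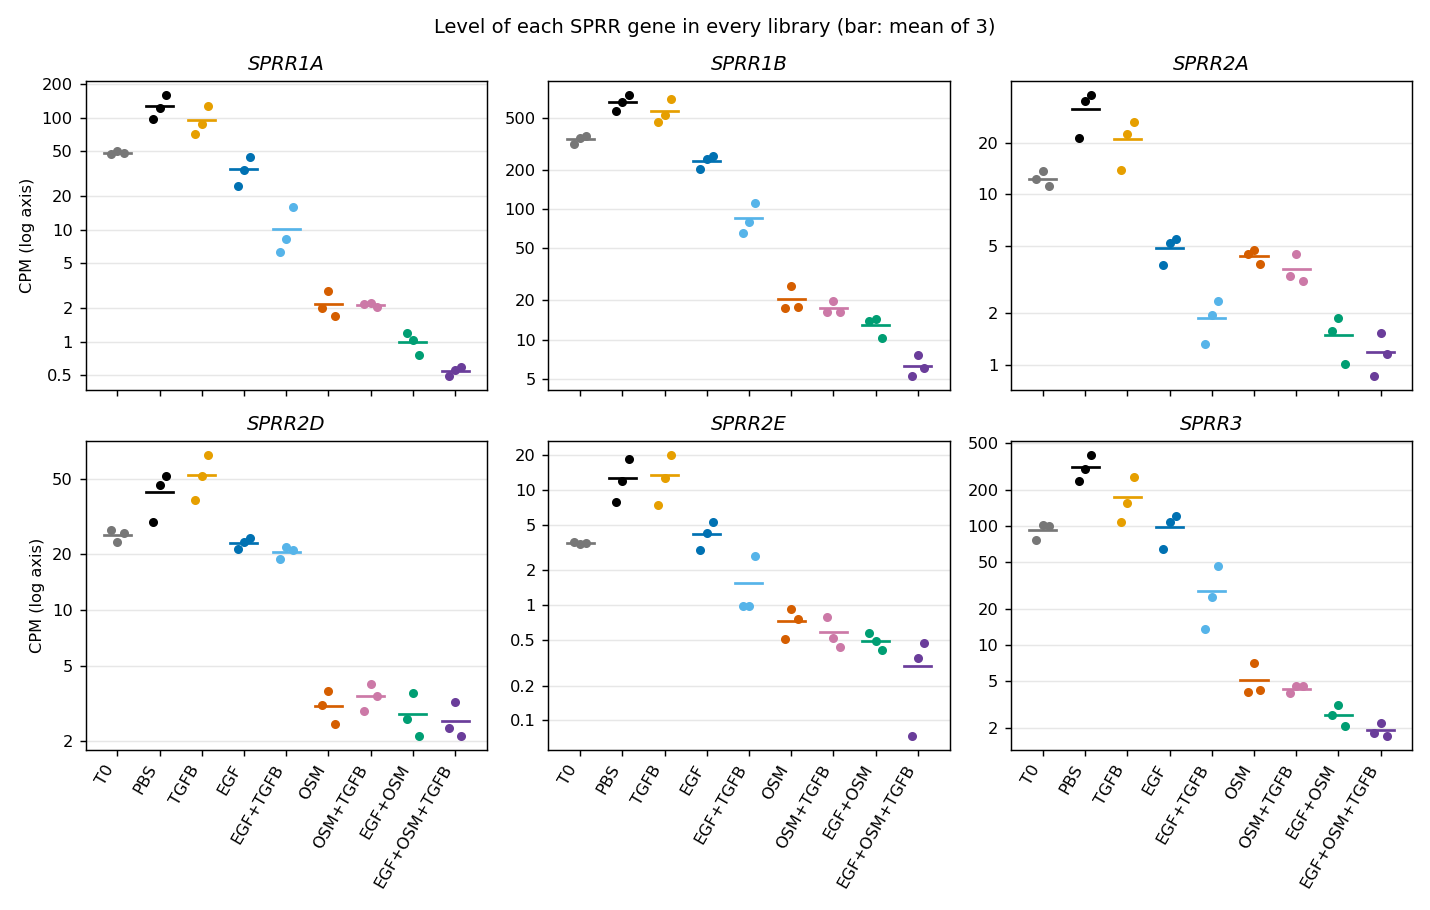
CPM of each of the 6 SPRR genes (log axis, a panel for each gene) in all 27 libraries by group; points are libraries and bars the mean of 3. PBS and TGFB sit highest and EGF+OSM+TGFB lowest in each panel, and SPRR2D splits into groups without OSM (18.8 CPM or more) and with OSM (4.03 CPM or less).

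The makeup of the 6 genes' summed counts differed between groups. SPRR1B held 55.8% ± 2.96 of the 6 genes' CPM in PBS (SD, n = 3) and 49.3% ± 0.812 with all 3 ligands. SPRR3 held 26.3% ± 1.71 in PBS, 13.9% ± 1.51 in OSM and 15.1% ± 1.58 with all 3. SPRR2A held 2.64% ± 0.389 in PBS and 12.4% ± 1.86 in OSM, and SPRR2D 3.58% ± 0.450 in PBS and 19.9% ± 2.14 with all 3 ligands. These shares are descriptions and carry no test.

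During the 24 h in PBS, all 6 genes rose from their T0 levels, while 15.1% of the 16611 rows tested were called higher. A call here means a Benjamini-Hochberg adjusted p, over all rows, below 0.05 in the quasi-likelihood test of edgeR. The median log2 fold change of the 6 was 1.37, against -0.01 over all rows. SPRR2E rose most, by 1.89 ± 0.40 on the log2 scale (SE; adjusted p = 0.00085), followed by SPRR3 (1.76 ± 0.34), SPRR1A (1.38 ± 0.25) and SPRR2A (1.36 ± 0.24). SPRR1B rose by 0.94 ± 0.18 and SPRR2D by 0.76 ± 0.20. For all 6 genes every PBS library lay above every T0 library, as it did for 21.8% of all rows tested. The PBS libraries enter this and every comparison with PBS below, the OSM comparison among them.

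EGF lowered all 6 genes relative to PBS, a call that 37.0% of all rows shared. SPRR2A fell most, by a log2 fold change of -2.71 ± 0.25 (SE, 6.56-fold; edgeR adjusted p = 3.1e-09). SPRR1A fell 3.67-fold (log2 -1.88 ± 0.25), SPRR3 3.21-fold (-1.68 ± 0.34), SPRR2E 3.08-fold (-1.62 ± 0.39) and SPRR1B 2.81-fold (-1.49 ± 0.19). SPRR2D fell least, 1.87-fold (-0.91 ± 0.20; adjusted p = 0.00032). The median of the 6 was -1.65, against -0.07 over all rows. The fibroblast list moved with EGF as well: DCN averaged 91.5 CPM in PBS and 11.3 CPM in EGF, and the summed list ran from 85.5 to 95.3 CPM and from 9.76 to 13.4 CPM, while COL3A1, LUM and PDGFRA averaged under 1 CPM. The leukocyte list ran from 54.3 to 61.1 CPM in PBS and from 26.2 to 29.8 CPM in EGF, while PTPRC and CD3E averaged under 1 CPM. The endothelial list summed to 2.60 to 4.60 CPM in PBS and 0.709 to 1.02 CPM in EGF, with VWF at 2.56 and 0.223 CPM and CDH5 at 0.0144 and 0.00666 CPM. The part of these markers in the SPRR result was not tested.

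OSM gave the largest single-ligand differences from PBS for each of the 6 genes. SPRR3 was 60.7-fold lower (log2 -5.92 ± 0.44, SE) and SPRR1A 57.3-fold lower (-5.84 ± 0.34). SPRR1B was 31.9-fold lower (-4.99 ± 0.22), SPRR2E 17.2-fold (-4.10 ± 0.46), SPRR2D 13.8-fold (-3.78 ± 0.24) and SPRR2A 7.25-fold (-2.86 ± 0.26). Every OSM library lay below every PBS library for all 6 genes, and for 30.7% of all rows tested. For SPRR2A the OSM and EGF libraries overlapped, so the order of these ligands is not settled for that gene. The choice of these genes used this comparison, and over all rows 28.5% were called lower and 32.4% higher. In OSM the leukocyte list summed to 96.2 to 119 CPM and the fibroblast list to 64.7 to 82.6 CPM, the same defining markers averaging under 1 CPM. The endothelial list summed to 1.34 to 2.13 CPM in OSM, with VWF at 0.0492 CPM and PECAM1 at 1.66 CPM. The part of these markers was not tested either.

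TGFB alone changed none of the 6 genes at an adjusted p under 0.05 by edgeR. Over all rows, 14.7% were called lower and 18.9% higher. The unadjusted p was under 0.05 for 2 of the 6 (SPRR2A and SPRR3). SPRR3 was at a log2 fold change of -0.85 ± 0.33 (95% interval -1.54 to -0.15; adjusted p = 0.058) and SPRR2A at -0.59 ± 0.23 (-1.08 to -0.11; adjusted p = 0.055). Both lay near the threshold: DESeq2 called 1 lower (SPRR2A, adjusted p = 0.048) and upper-quartile scaling both. With the replicate numbers as a block, edgeR also called both lower (adjusted p = 0.0027 for SPRR3 and 0.013 for SPRR2A). The count was 2 without PBS replicate 1, TGFB replicate 3 or EGF+TGFB replicate 1, and 1 without EGF replicate 1, EGF+OSM replicate 3 or EGF+TGFB replicate 3. SPRR1A (-0.40), SPRR1B (-0.23), SPRR2E (0.07) and SPRR2D (0.31) had intervals that included 0. For SPRR2D the interval ran from -0.09 to 0.71 and for SPRR2E from -0.72 to 0.85, so changes within those ranges are not excluded. With replicate numbers set aside, TGFB libraries overlapped PBS for all 6 genes. Between libraries of the same number, TGFB lay below PBS at every number for SPRR1A, SPRR1B, SPRR2A and SPRR3. It lay above PBS at every number for SPRR2D and went both ways for SPRR2E. The numbers were not taken as pairs, so these directions are a description.

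With 2 ligands, all 6 genes were called lower than PBS in each pair. EGF+TGFB gave a median log2 fold change of -3.29 (36.3% of rows called lower), OSM+TGFB -4.84 (30.5%) and EGF+OSM -5.19 (38.4%). The 3 ligands together gave -6.10 (35.5% of rows called lower), from -4.07 ± 0.25 (SE) for SPRR2D to -7.85 ± 0.42 for SPRR1A, with all 6 genes called lower. SPRR1A was 12.7-fold lower in EGF+TGFB, 59.0-fold in OSM+TGFB, 127-fold in EGF+OSM and 231-fold with all 3. SPRR2D was 2.08-fold lower in EGF+TGFB, against 12.4-fold, 15.3-fold and 16.8-fold in the groups with OSM.

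OSM added to other ligands also lowered SPRR genes. Added to EGF, a comparison that shares no library with OSM against PBS, it lowered all 6, while 16.4% of all rows were called lower. The genes were chosen with earlier results of these libraries known, so this is not an independent test. The log2 fold change was -5.22 ± 0.46 (SE; 37.4-fold) for SPRR3, -5.12 ± 0.38 for SPRR1A, -4.18 ± 0.22 for SPRR1B, -3.08 ± 0.48 for SPRR2E, -3.03 ± 0.24 for SPRR2D and -1.68 ± 0.29 for SPRR2A. Added to TGFB, OSM again lowered all 6 (25.3% of rows called lower), from -2.53 ± 0.26 for SPRR2A to -5.48 ± 0.34 for SPRR1A. Added to EGF+TGFB, OSM lowered 5 of the 6 (12% of rows called lower), among them SPRR1A (-4.18 ± 0.48). The exception was SPRR2A, at -0.69 ± 0.34 (95% interval -1.40 to 0.02; adjusted p = 0.15).

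EGF lowered all 6 genes on TGFB, and fewer of them passed the test where OSM was present. The SE was larger on OSM, for SPRR1A 0.50 against 0.28 on TGFB. The OSM libraries, which entered the choice of genes, also enter the comparisons of EGF or TGFB added to OSM. Added to TGFB, EGF lowered all 6 genes (34.1% of rows called lower), from -1.37 ± 0.20 (SE) for SPRR2D to -3.48 ± 0.28 for SPRR2A. The fibroblast list summed to 95 to 98 CPM in TGFB and 9.60 to 11.9 CPM in EGF+TGFB (DCN 96.2 and 11 CPM), and CD14 averaged 15.6 and 1.89 CPM, and their part was not tested. Added to OSM, EGF lowered 2 of the 6, near the 30.7% of all rows called lower: SPRR2A (-1.54 ± 0.29) and SPRR1B (-0.68 ± 0.22). SPRR1A stood at -1.15 ± 0.50 (adjusted p = 0.054) and SPRR2D at -0.15 ± 0.27 (95% interval -0.72 to 0.41). The count was 4 by DESeq2, which also called SPRR1A and SPRR3 lower, and 1 without OSM replicate 2 or without EGF+OSM replicate 3. Added to OSM+TGFB, EGF lowered 3 (24.9% of rows called lower): SPRR1A (-1.97 ± 0.60), SPRR2A (-1.64 ± 0.32) and SPRR1B (-1.48 ± 0.24). DESeq2 also called SPRR3 there (adjusted p = 0.0056).

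TGFB added to EGF lowered 5 of the 6 (26.4% of rows called lower): SPRR3 (-1.80 ± 0.36, SE, log2), SPRR1A (-1.79 ± 0.28), SPRR2E (-1.46 ± 0.43), SPRR1B (-1.45 ± 0.19) and SPRR2A (-1.36 ± 0.28). The SPRR2E value moved most with EGF+TGFB replicate 3 (2.67 CPM, against 0.991 and 0.973 CPM in the others). Without it, SPRR2E was at -2.12 for TGFB added to EGF, -3.75 for EGF added to TGFB and -3.68 for EGF+TGFB against PBS. SPRR2D did not pass, at -0.15 ± 0.20 (95% interval -0.57 to 0.26). Added to OSM, TGFB changed none of the 6 by edgeR, with 0 at an unadjusted p under 0.05 and 0 by DESeq2, while 24.2% of rows were called lower and 24.6% higher. Their log2 fold changes there ran from -0.35 to 0.15. Added to EGF+OSM, TGFB lowered SPRR1B alone (-1.04 ± 0.25; 28.4% of rows called lower), and DESeq2 called SPRR1A as well.

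The differences between these backgrounds were themselves tested with interaction terms, each a difference of log2 fold changes. The term for EGF and TGFB without OSM asks whether TGFB acts differently with and without EGF. It was below 0 and called for 3 of the 6 (15.4% of rows called lower): SPRR2E (-1.53 ± 0.57, SE), SPRR1A (-1.39 ± 0.37) and SPRR1B (-1.22 ± 0.26). SPRR3 (-0.95 ± 0.48), SPRR2A (-0.77 ± 0.37) and SPRR2D (-0.46 ± 0.28) did not pass. The SPRR2E call, at an adjusted p of 0.0496, was lost without the low-count filter (adjusted p = 0.10), with upper-quartile scaling (0.050) and in 14 of the 27 fits that left out 1 library, where it reached 0.17 without TGFB replicate 3. The SPRR2E terms without EGF+TGFB replicate 3 were -2.19 here and 2.71 for the next term. That next term was 1.56 without EGF+OSM+TGFB replicate 3 (edgeR adjusted p = 0.26), SPRR2E having 3 to 15 counts per EGF+OSM+TGFB library. The term for EGF and OSM in the presence of TGFB was above 0 for all 6 genes and called for 4 (14% of rows called higher), so that the 2 ligands together lowered these less than the sum of their separate log2 effects. SPRR2E had 2.12 ± 0.81, SPRR2A 1.84 ± 0.43, SPRR1B 1.24 ± 0.31 and SPRR2D 0.92 ± 0.35. SPRR2D and SPRR2E were near the threshold (adjusted p = 0.045 and 0.048), the count being 2 without the filter, 6 by DESeq2 and 2 in 15 of the 27 fits that left out 1 library, among them each that left out a T0 or EGF replicate. The term for OSM and TGFB in the presence of EGF was called for none of the 6 (1 at an unadjusted p under 0.05, 0 by DESeq2; 5.36% of rows called higher), with values from 0.02 to 1.34. Terms holding the OSM comparison with PBS were not formed, since it entered the choice of genes.

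**Figure D2:**
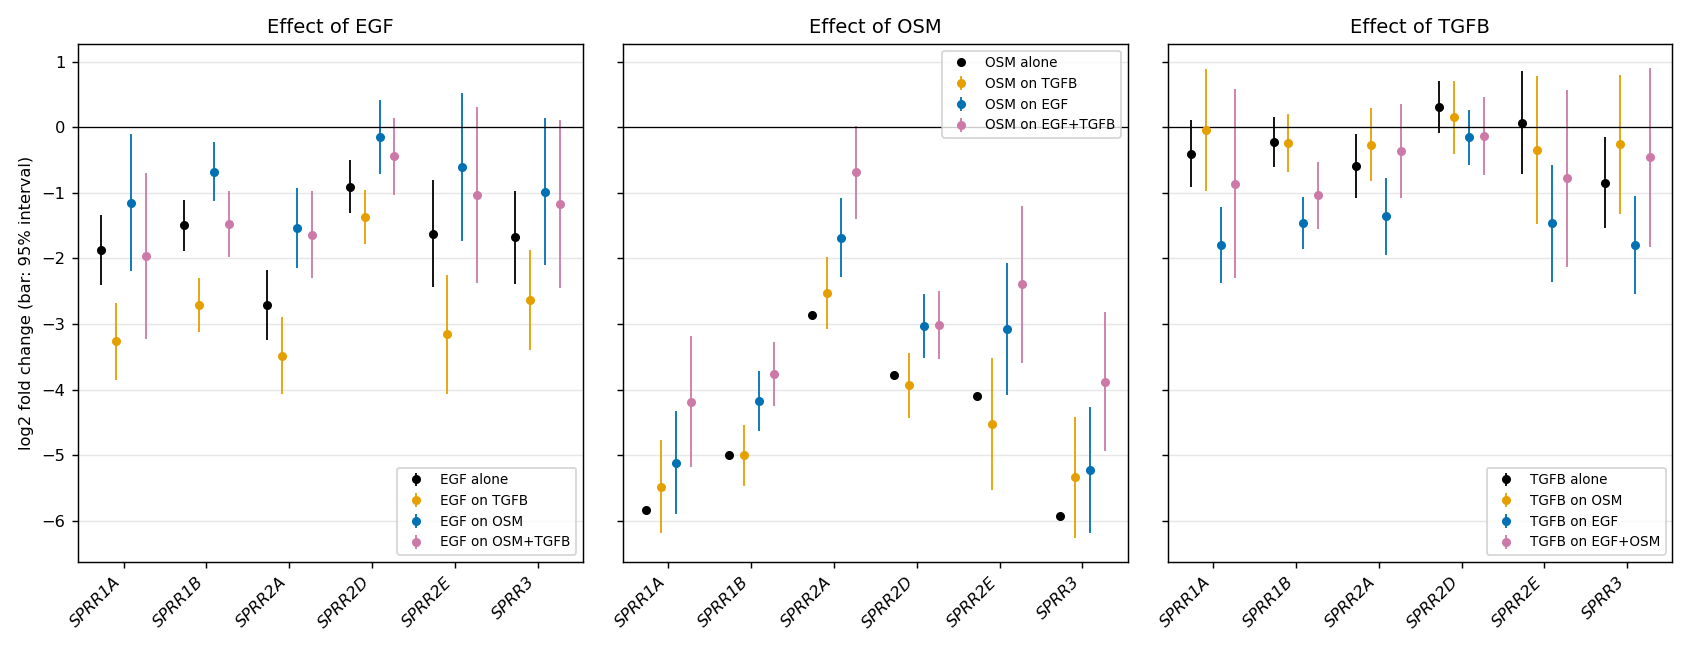
Log2 fold change of each SPRR gene on adding EGF (left), OSM (middle) or TGFB (right), to PBS medium (black, "alone") or to the other ligands; points are fitted values and bars 95% intervals, not drawn for OSM alone because that comparison entered the choice of genes. The intervals of OSM on other ligands lie wholly below 0 except that of SPRR2A on EGF+TGFB, which reaches 0.02. The TGFB intervals lie wholly below 0 for 5 genes on EGF and for 0 on OSM. They also do so for SPRR2A and SPRR3 with TGFB alone and for SPRR1B on EGF+OSM. The intervals are not adjusted over rows.

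Of the 6 further SPRR genes, 4 had enough counts to be tested, and SPRR2C and SPRR2F had at most 3 counts in any library. SPRR2G had 4, 6 and 11 counts in PBS and 76, 117 and 198 in TGFB, and 3, 8 and 14 in EGF and 48, 94 and 83 in EGF+TGFB. Its counts outside TGFB and EGF+TGFB were at most 14, and it passed the low-count filter through those groups, so no test of the TGFB difference is given. SPRR5 had 337, 450 and 571 counts in PBS and 27, 60 and 41 in EGF (log2 -3.51 ± 0.35), and 17, 20 and 6 in OSM (-4.86 ± 0.40). SPRR4 held 32 to 33 counts in PBS and 0, 1 and 0 in OSM, and SPRR2B 6, 15 and 12 against 0, 0 and 1. With so few counts, calls for SPRR2B, SPRR2G and SPRR4 are not counted.

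Other cornified envelope precursors moved in part with the SPRR genes. Of 27 listed, 19 were tested, and the lists used here were written with earlier results known. In OSM 14 were called lower and 2 higher (TCHH and TCHHL1), against 28.5% and 32.4% of all rows. The median log2 fold change was -1.33 against 0.00 over all rows. CRNN (cornulin) had 0 counts in all OSM libraries and at least 88 in each PBS library. IVL (involucrin) fell from 112 to 4.11 CPM (log2 -4.75 ± 0.18, SE), and KRTDAP fell too (-4.52 ± 0.38). TCHHL1 had 1 to 5 counts per PBS library and 67 to 232 per OSM library. With so few counts in PBS, its call, counted above, carries no weight. In EGF 12 fell and 0 rose, while 37.0% of all rows fell and 5609 of 16611 rose. RPTN, FLG, HRNR and KPRP were at log2 fold changes of -3.36, -3.33, -3.15 and -2.78 there. In TGFB 5 fell and 1 rose, against 14.7% and 18.9% of all rows. IVL went up to 280 CPM (1.33 ± 0.14), while FLG (filaggrin) and HRNR (hornerin) fell (-1.26 and -1.36). Of 4 listed crosslinking enzymes, the transglutaminases, 3 were tested. TGM5 and TGM1 fell in EGF (-2.45 and -2.04) and in OSM (-3.68 and -0.68), while TGM2, a widely expressed member, rose in EGF (2.08), OSM (4.11) and TGFB (5.41). In TGFB, TGM1 fell (-1.91) and TGM5 was at 0.11 (adjusted p = 0.72).

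Keratins of the differentiated layers showed both directions. In OSM 7 of 11 tested were lower and 4 higher, against 28.5% and 32.4% of all rows. KRT1, KRT4, KRT13 and KRT10 had log2 fold changes of -7.87 ± 0.52, -7.36 ± 0.59, -5.78 ± 0.31 and -5.58 ± 0.30 (SE). KRT6A, KRT6B, KRT6C and KRT17, keratins of activated or stressed epidermis named after their values were seen, rose by 1.20, 1.22, 2.83 and 1.31. EGF lowered 7 (37.0% of all rows), led by KRT1 (-4.93) and KRT10 (-3.90), and raised 3 (5609 of all 16611 rows). TGFB lowered 6 (14.7% of all rows), led by KRT1 (-3.44) and KRT13 (-2.28), and raised 3 (18.9% of all rows). Thus TGFB alone lowered suprabasal keratins while none of the 6 SPRR genes passed the test, and the difference between the lists was not tested. Of the 3 basal keratins, KRT15 fell in EGF (-4.25), OSM (-3.25) and TGFB (-2.03), and KRT14 rose in OSM (2.04).

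Genes of late junctions and shedding, such as corneodesmosome cadherins and kallikreins, followed the OSM pattern. All 13 were lower in OSM (28.5% of all rows), at a median of -2.83. DSG1 (desmoglein 1) went from 9.97 to 0.194 CPM (-5.65 ± 0.39, SE), and CDSN, KLK7 and KLK10 stood at -5.67, -3.33 and -3.15. EGF lowered 11 of 13 and TGFB 2 of 13 (KLK11 and KLK10), raising DSC2, while EGF lowered 37.0% and TGFB 14.7% of all rows. Of 29 transcription factors known to act on SPRR promoters or in squamous differentiation, EGF lowered 26 and raised 2 (FOSL1, an AP-1 subunit, by 3.34 ± 0.13, and ETS1), with a median of -1.11 against -0.07 over all rows. Over all rows, EGF lowered 37.0% and raised 5609 of 16611. MAF and ELF3 fell in EGF, with log2 fold changes of -3.78 ± 0.34 and -3.03 ± 0.36. OSM lowered 13 and raised 9, against 28.5% and 32.4% of all rows, so the number raised was near the share over all rows. FOSL1 (2.27), ETS1 (2.19) and ETS2 (2.10) were among those raised and KLF4 (-1.86) among those lowered. TGFB raised 7 and lowered 7, against 18.9% and 14.7% of all rows, with ETS1 (1.36) and JUN (1.21) up and ZNF750 (-0.62) down.

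The S100 genes of the same chromosomal cluster, which encode small calcium-binding proteins, went the other way in OSM. There, 10 of 13 were higher and 3 lower, against 32.4% and 28.5% of all rows. S100A8 and S100A9, the subunits of calprotectin, rose from 256 to 2354 CPM and from 544 to 4652 CPM (log2 3.20 ± 0.18 and 3.10 ± 0.17, SE). S100A7A rose by 5.75 ± 0.41 and S100A12 by 2.69 ± 0.25. EGF raised 6 and lowered 6 of them, while it raised 5609 of all 16611 rows and lowered 37.0%. S100A8 stood at -1.66 ± 0.17 and S100A2 at 2.52 ± 0.08 in EGF.

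Around the SPRR genes, 12 genes outside the family were tested within 300 kb on either side. In OSM 6 of these were lower and 4 higher, against 28.5% and 32.4% of all rows. In EGF 9 were lower and 0 higher (37.0% of all rows lower and 5609 of 16611 higher). In TGFB 2 were lower and 1 higher, near the 14.7% and 18.9% of all rows. On the LCE side, IVL stood at -4.75 in OSM. On the S100 side, PGLYRP3 and PGLYRP4, which encode peptidoglycan-recognition proteins, stood at -3.44 and -2.20, and the next genes, S100A9, S100A12 and S100A8, at 3.10, 2.69 and 3.20. On that side, the change from lower to higher calls in OSM fell between PGLYRP4 and S100A9, and in EGF the same 3 S100 genes were lower (-1.41, -1.37 and -1.66). C1orf68 had 0 counts in PBS and 3 to 7 in OSM, and PRR9 had 0 in OSM and 3 to 29 in PBS, so their fitted fold changes depend on the prior count. C1orf68 had its highest counts in OSM+TGFB (38 to 62) and EGF+OSM+TGFB (101 to 124). The counts of calls above include C1orf68 among those higher in OSM and PRR9 among those lower in OSM and EGF, and these calls carry no weight.

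**Figure D3:**
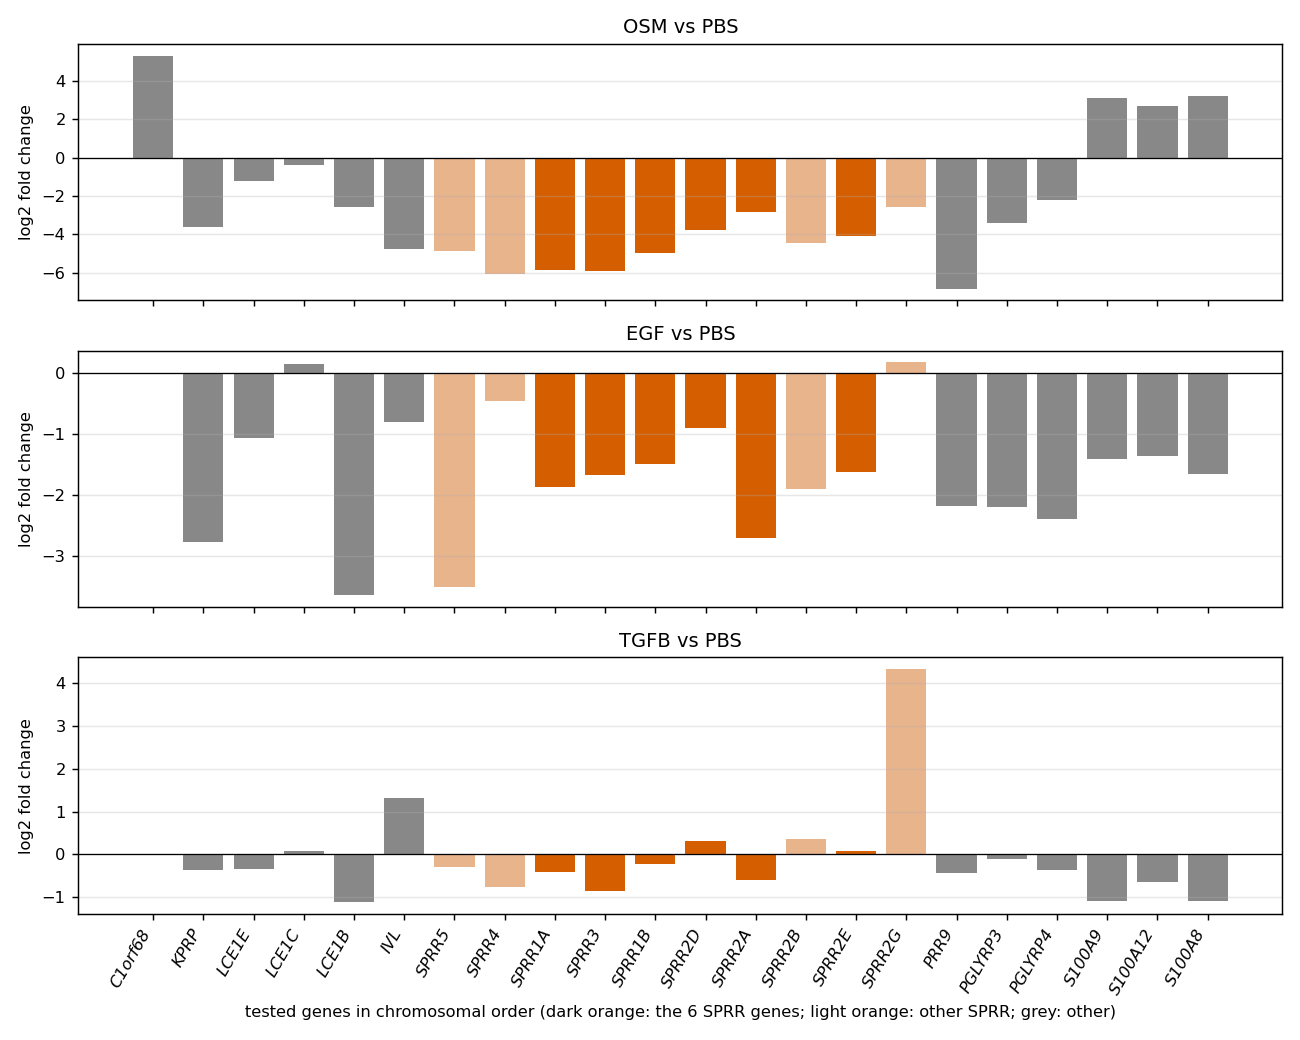
Fitted log2 fold change against PBS for OSM (top), EGF (middle) and TGFB (bottom) of the 22 tested genes around the SPRR genes, as bars in chromosomal order; dark orange marks the 6 SPRR genes, light orange other SPRR genes and grey other genes. In OSM the bars from KPRP to PGLYRP4 lie below 0 and those of S100A9, S100A12 and S100A8 between 2.69 and 3.20, and in TGFB the tallest bar is SPRR2G at 4.33; the OSM bars of C1orf68 and PRR9 rest on groups with 0 counts.

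Across the 27 libraries, log2 CPM of the 6 genes correlated with Pearson's r from 0.77 (SPRR2A with SPRR2D) to 0.997 (SPRR1A with SPRR1B). Deviations from the group means also correlated, from 0.41 (SPRR2D with SPRR2E) to 0.92 (SPRR1A with SPRR3). These values are descriptions over libraries that share groups and depth. Outside the SPRR family, the profile most like the mean of the 6 was that of SBSN (suprabasin, a protein of suprabasal keratinocytes), with r = 0.992 over 27 libraries. VSIG10L (0.984), KRT78 (0.984), DSG1 (0.983), MUC21 (0.981, in 2 identical rows), DSG4 (0.980), KRTDAP (0.979), SPTSSB (0.976) and HSD11B2 (0.976) completed the 10 nearest rows. SBSN averaged 156 ± 26.9 CPM in PBS, 123 ± 29.1 in TGFB, 74.3 ± 6.73 in EGF, 19.2 ± 2.90 in OSM and 9.06 ± 1.61 with all 3 ligands (SD, n = 3). SBSN led for SPRR1A, SPRR1B and SPRR3, DSG1 for SPRR2E (0.961), ABCA12, a lipid transporter of keratinocytes, for SPRR2A (0.980), and SERPINB7 for SPRR2D (0.972). DMKN (0.977) and ADGRF1 (0.975) came next for SPRR2A, and DSG4 (0.971) and P3H2 (0.970) for SPRR2D.

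**Figure D4:**
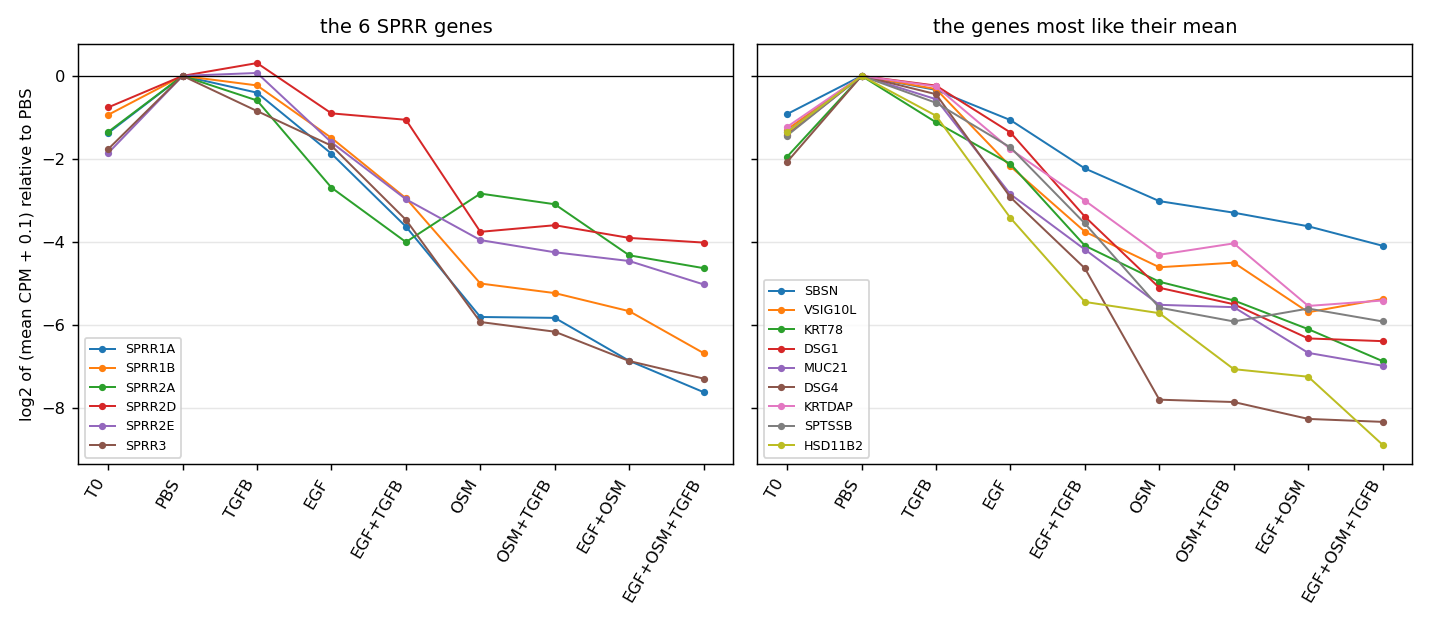
Log2 of (mean CPM + 0.1) relative to PBS by group, for the 6 SPRR genes (left) and the genes most like their mean (right); each line is a gene, joins the means of 3 libraries per group, and has no error bars. The lines of both panels are highest in PBS or TGFB and lowest in groups with OSM, SPRR2A alone lying lower in EGF+TGFB (1.88 CPM) than in OSM (4.35 CPM).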

How the data were processed

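RNA-seq libraries had been made with a stranded mRNA kit, per the labels' protocols. The deposited estimated counts per gene came from the authors, whose tools were Trim Galore 0.4.3, cutadapt 1.10, FastQC 0.11.5, kallisto 0.46.2 and R 3.5.0 with builds GRCh38.p5 and hg38, per the submitters' processing notes, which give no role or order. The values were already whole. Library totals were 30.1 to 52.9 M. Rows passing edgeR's expression filter (16611 of 40487) were fitted in 1 model with a mean for each of the 9 groups, TMM scaling and robust quasi-likelihood tests (edgeR 4.0.16, R 4.3.3), with Benjamini-Hochberg adjustment over all rows and a threshold of 0.05. SE was the log2 fold change over the square root of F, and intervals are 95%. The prior count was 0.125 for fold changes and 2 for log2 CPM. Alternatives were DESeq2 1.42.0, upper-quartile and relative-log-expression scaling, no filter, summed rows, other prior counts, the replicate numbers as a block and each library left out. The members and the gene lists were chosen with earlier results of these data known. All 6 genes are named, with the list genes of largest change and the 10 rows of highest correlation, others being marked as named after their values were seen. No library was left out of the model. Of the factor list, 1 gene that the rule would name is not reported here.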

Additional observations from a re-analysis of the deposited data

Results flagged for a closer look

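The terms below are differences between log2 fold changes of the same contrast on 2 backgrounds, tested in the edgeR model with adjustment over all rows. The effect of TGFB differed with and without EGF, in the absence of OSM, for SPRR1A (-1.388, adjusted p = 0.0078), SPRR1B (-1.225, adjusted p = 0.0015) and SPRR2E (-1.535, adjusted p = 0.0496). SPRR1A was at 126 CPM in PBS and 95.4 CPM in TGFB, against 34.4 CPM in EGF and 10.1 CPM in EGF+TGFB. The effect of EGF in the presence of TGFB differed with and without OSM for SPRR1B (1.242, adjusted p = 0.0037), SPRR2A (1.838, adjusted p = 0.0021), SPRR2D (0.9231, adjusted p = 0.045) and SPRR2E (2.124, adjusted p = 0.048). Of 33 alternative fits, 13 called this term for SPRR2D and 10 for SPRR2E, and 17 called the term of TGFB and EGF for SPRR2E. SPRR2A was at 20.9 CPM in TGFB and 1.88 CPM in EGF+TGFB, against 3.62 CPM in OSM+TGFB and 1.18 CPM in EGF+OSM+TGFB.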

How the results depend on the processing

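The count of SPRR genes called lower by TGFB, 0 in the reported model, was 2 with upper-quartile scaling, 2 with the replicate block, 1 with rows summed by symbol, 1 by DESeq2, and 0 to 2 with a library left out. For EGF added to OSM (2) it was 4 with the replicate block, 4 by DESeq2, and 1 to 3 with a library left out. TGFB added to EGF+OSM lowered 2 by DESeq2 (1 reported). The term for EGF and TGFB was called for 5 with the replicate block (3 reported). That for EGF and OSM with TGFB was called for 2 without the filter, 2 with summed rows, and 2 to 4 with a library left out (4 reported). With a prior count of 0.5, 6 of the 10 most similar rows were shared. SPRR2D's term for OSM and TGFB (0.02) became -0.01491 without the filter and ran from -0.1564 to 0.2598 with a library left out. Leaving out a library also turned the sign of 6 values that passed no test: SPRR2E in TGFB (-0.3484 to 0.4367), SPRR2D for EGF added to OSM (-0.3952 to 0.03344), SPRR1A, SPRR3 and SPRR2D for TGFB added to OSM (-0.2061 to 0.1829, -0.4262 to 0.04314 and -0.0008317 to 0.2875), and SPRR2D for TGFB added to EGF+OSM (-0.3653 to 0.1046). The cause was not tested. Same-numbered libraries deviated together with r from -0.0529 to 0.158 over 108 pairs, 10 of them over 0.1, so the numbers were not taken as pairs, although 25 of 27 libraries correlated best with their own number. The replicate block changed no other count by over 1.5 times. Upper-quartile scaling moved the median log2 fold change of all rows from -0.0449 to -0.144 in EGF+OSM and from 0 to -0.101 in EGF+OSM+TGFB. Depth limits SPRR2E, with 3 counts in its lowest library.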
